A study of Mus musculus with 21 samples.

Results

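Ttr, Trf, Rbp4, Ahsg, Fetub, Ambp, Itih1, Itih2, Itih3 and Itih4 encode secreted plasma proteins: 3 carriers, 2 fetuins, and the light and heavy chains of the inter-alpha inhibitors with the heavy chain relative Itih4. The 10 genes were chosen by name from the 54532 genes of the count tables, and their levels were followed in 21 libraries of mouse cells in 7 groups. The series asked how closely cells induced from fibroblasts by small molecules came to resemble hepatocytes.

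All cells were labelled wild type, and 7 groups were made from them. Embryonic fibroblasts in standard serum medium are called MEF (n = 3). The C6FAE cells (n = 3) are such fibroblasts in a reprogramming medium that holds basic FGF and 5 compounds. These are the GSK3 inhibitor CHIR99021 at 20 µM, the TGF-beta receptor blocker 616452 at 10 µM, Forskolin at 50 µM, which activates adenylyl cyclase, the retinoid AM580 at 0.05 µM and the Dot1l inhibitor EPZ004777 at 5 µM. For C6F(L) (n = 3), MEF went straight into hepatocyte culture medium, which contains dexamethasone (1 µM), nicotinamide, insulin, transferrin, selenium, FGF4, HGF and EGF. The doses of CHIR99021, 616452 and Forskolin there were those of C6FAE over 4 days and later 3 µM, 2 µM and 2 µM. In the C6FAE-C6F(L) cells (n = 4) the C6FAE medium came before, with the change of medium on day 4. The C6F5UE-C6F(L)V cells (n = 3) had the retinoid CH55 (1 µM) where AM580 had been, the G9a inhibitor UNC0638 (0.05 µM) beside it, and vitamin C (50 µg/ml) in the later medium. Neonatal skin fibroblasts under that last protocol gave NSF-CiHeps (n = 3), and liver hepatocytes kept in culture for 2 days are pHeps (n = 2). Collection days of the induced cells and the strain of the mice are not in the labels. Nothing in the labels ties replicates to different cultures or mice, so the p-values measure only the spread between these libraries, which may be technical. Untreated skin fibroblasts were not analysed here.

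Hepatocytes make most of the proteins carried in plasma and secrete them continuously. Transthyretin (Ttr) carries thyroxine and holds retinol-binding protein 4 (Rbp4), which brings retinol from liver to tissues, while transferrin (Trf) carries iron. The fetuins Ahsg and Fetub are cystatin-family proteins that bind calcium mineral and inhibit proteases respectively. Ambp is translated as a precursor that is cut into alpha-1-microglobulin and bikunin. Bikunin is the protease-inhibiting light chain of the inter-alpha inhibitors, and the Itih1, Itih2 and Itih3 proteins are the heavy chains that are linked to it and then passed on to hyaluronan, whereas Itih4 is a related acute-phase protein without that link. Several of these genes have sites of expression outside liver, Ttr in choroid plexus and visceral endoderm, Trf in oligodendrocytes and Rbp4 in fat.

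Total counts ran from 9180939 to 12319883 per library. The summed level of 12 hepatocyte markers that are not secreted was 137 to 173 CPM (a gene's counts scaled to a fixed library total, with TMM factors over all libraries) in MEF and 1113 to 1132 CPM in pHeps. In the induced groups it was 1038 to 1229 CPM in C6F5UE-C6F(L)V, 251 to 339 CPM in NSF-CiHeps and 251 to 809 CPM in C6FAE-C6F(L). Of the 12, 4 were called higher and 3 lower in C6F5UE-C6F(L)V than in pHeps (rule given below), against 18.4% and 14.7% of all genes. Fibroblast markers (7 genes) summed to 26103 to 27104 CPM in MEF and 5.18 to 6.24 CPM in pHeps, and macrophage markers (6 genes) to 1316 to 1694 CPM in MEF and 484 to 607 CPM in pHeps. C6FAE-C6F(L) libraries also held keratinocyte markers (5 genes) at 8355 to 15298.5 CPM, against at most 172 CPM in any other group. C6FAE-C6F(L) replicate 4 stood apart from its group, with fibroblast markers at 2269 CPM against 236 to 622 CPM, hepatocyte markers at 251 CPM against 726 to 809 CPM, and ribosomal protein genes at 3.49% of its counts, where the other 3 had 7.28% to 8.90%. The 10 genes together took 0.00172% to 0.00208% of counts in MEF, 0.0107% to 0.0507% in C6FAE-C6F(L), 0.517% to 0.627% in C6F5UE-C6F(L)V, 0.0237% to 0.110% in NSF-CiHeps and 1.01% to 1.07% in pHeps.

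**Figure D1:**
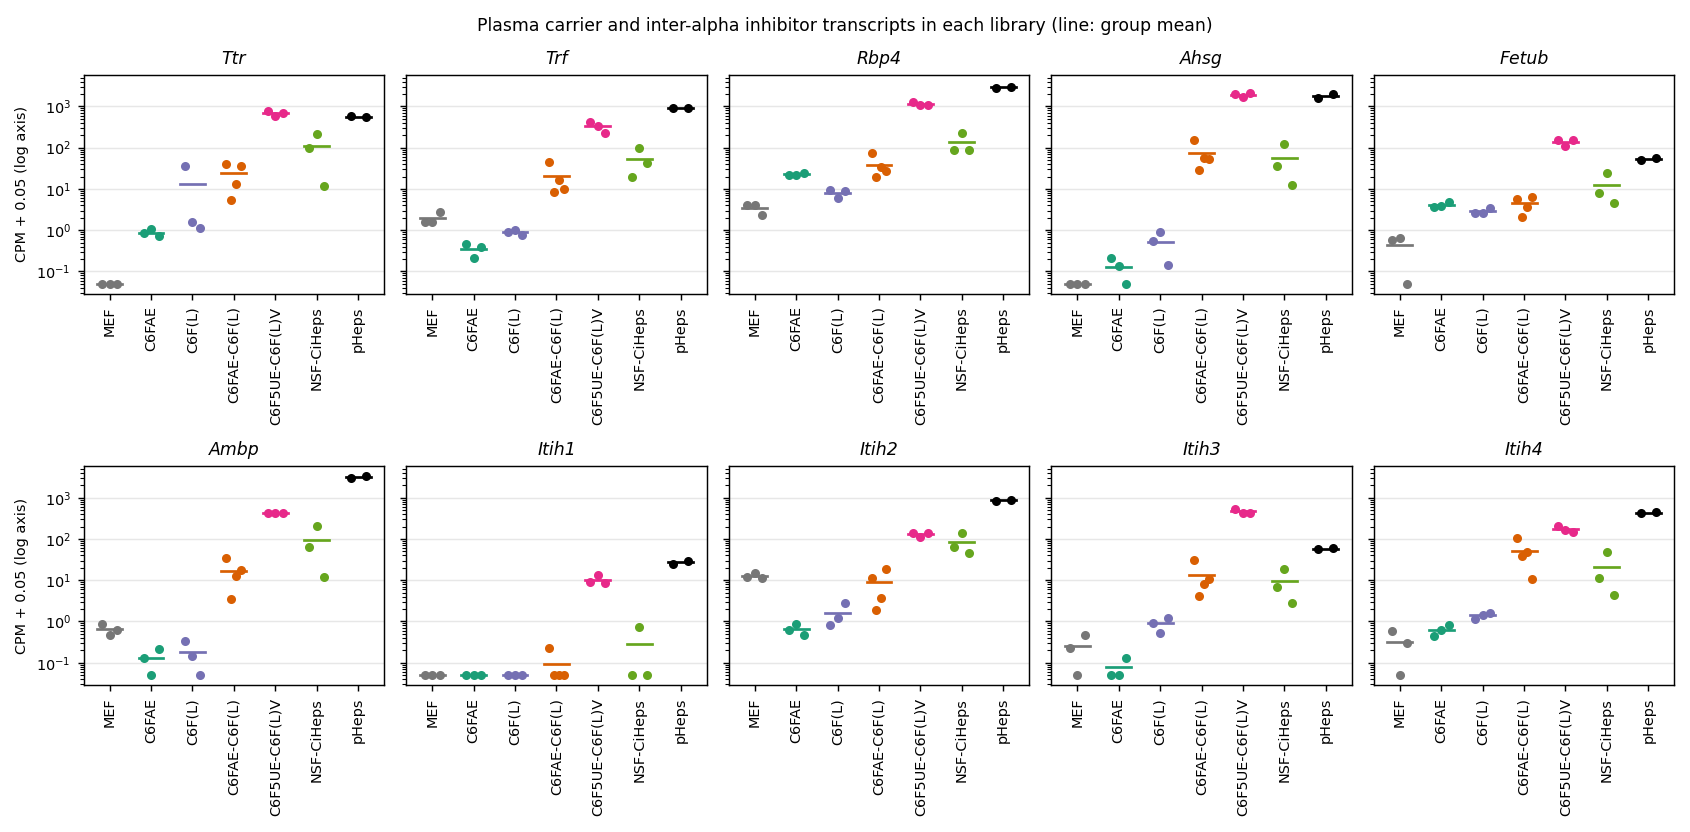
Level of each gene in each library, as CPM + 0.05 on a log axis, with a point per library and a line at the group mean. All 3 MEF libraries have 0 counts of Ttr, Ahsg and Itih1, and only Ttr, Ahsg, Fetub and Itih3 reach a group mean in C6F5UE-C6F(L)V that is above that of pHeps.

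Among the carriers, Ttr (ENSMUSG00000061808, GRCm38 chromosome 18, 20665250 to 20674324, plus strand) was the carrier closest to its hepatocyte level in C6F5UE-C6F(L)V cells. Its level was 590 and 547 CPM in the pHeps libraries and 773, 573 and 693 CPM in C6F5UE-C6F(L)V. It was 96.6, 216 and 11.4 CPM in NSF-CiHeps replicates 1 to 3, and 41.0, 5.47, 13.2 and 35.5 CPM in C6FAE-C6F(L). The C6F5UE-C6F(L)V range held 1 of the pHeps libraries, and every library of NSF-CiHeps and C6FAE-C6F(L), which overlapped each other, lay below both. In C6F(L) a single library held nearly all the signal, with 366 counts of Ttr in replicate 1 and 16 and 12 counts in the other 2. That library also had the highest keratinocyte marker sum of its group, 172 CPM against 12.1 and 81.2 CPM, and the part of this in the Ttr level was not tested. C6FAE held 8 to 12 counts per library, and MEF 0. Choroid plexus markers (5 genes) summed to 813 to 902 CPM in C6FAE, where Ttr was at 0.825 ± 0.166 CPM (SD, n = 3), with the marker Otx2 at 0 counts. In C6F5UE-C6F(L)V those markers summed to 204 to 265 CPM and in pHeps to 17.2 to 18.7 CPM. Visceral endoderm markers (8 genes) summed to 300 to 330 CPM in C6F5UE-C6F(L)V, 180 to 197 CPM in pHeps and 572 to 643 CPM in MEF. In C6F5UE-C6F(L)V 5 of the 8 were called higher than in pHeps and 1 lower, against 18.4% and 14.7% of all genes. Compared with MEF, 5 were called higher there and 2 lower, against 25.7% and 26.4%, though their sum was lower. The part of either list in the Ttr level was not tested.

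Rbp4 (ENSMUSG00000024990, chromosome 19, 38116620 to 38125321, minus strand) already differed after C6FAE alone. It was at 3.99, 3.94 and 2.27 CPM in MEF and at 21.6, 21.3 and 24.0 CPM in C6FAE, with no overlap, and at 9.36, 6.15 and 8.67 CPM in C6F(L). The C6FAE-C6F(L) libraries, at 74.2, 19.2, 34.1 and 27.3 CPM, overlapped C6FAE. C6F5UE-C6F(L)V reached 1154 ± 127 CPM (SD, n = 3), which was 40.1% of the pHeps mean of 2877 ± 91.1 CPM (n = 2), and NSF-CiHeps 135 ± 82.4 CPM (n = 3). Adipocyte markers (5 genes) summed to 260 to 304 CPM in C6F5UE-C6F(L)V, 65.98 to 75.43 CPM in pHeps, 20.6 to 54.3 CPM in MEF, 4.597 to 8.585 CPM in C6FAE and 9.28 to 25.8 CPM in C6FAE-C6F(L). Of 4 tested against MEF, 2 were called higher and 2 lower in C6F5UE-C6F(L)V, against 25.7% and 26.4% of all genes. In pHeps 1 was higher than in MEF and 2 were lower, against 24.4% and 27.2%. The adipokine gene Lep was at 0 counts in C6F5UE-C6F(L)V and pHeps, and pHeps also lacked Adipoq and Plin1. Their part in the Rbp4 level was not tested. Per kilobase of gene model, Rbp4 was the higher of the retinol carrier pair in pHeps, at 4.48 and 5.06 times Ttr, and this ratio was 1.495 to 1.741 in C6F5UE-C6F(L)V.

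Trf (ENSMUSG00000032554, chromosome 9, 103204001 to 103230444, minus strand) was lower in C6FAE than in MEF. It was at 1.51, 1.54 and 2.77 CPM in MEF, 0.404, 0.167 and 0.334 CPM in C6FAE and 0.730 to 0.946 CPM in C6F(L). In C6FAE-C6F(L) it was at 45.7, 8.39, 16.6 and 9.90 CPM, above every library of those 3 groups. Glia markers (4 genes) summed to 87.7 to 93.0 CPM in MEF and 7.83 to 8.96 CPM in C6FAE. They summed to 39.5 to 46.9 CPM in C6F(L) and 76.2 to 186 CPM in C6FAE-C6F(L). In C6FAE 3 of the 4 were called lower than in MEF and none higher, against 14.7% and 15.6% of all genes. In C6FAE-C6F(L) 2 were called lower than in MEF and 1 higher, against 19.3% and 18.2%. Compared with C6FAE, 2 were higher there and none lower, against 16.1% and 17.6%. Compared with C6F(L), 1 was higher and 3 were lower, against 15.5% and 16.5%, though their sum was higher. None of the 4 was at 0 counts in those groups, and their part in the Trf levels was not tested. In pHeps they summed to 5.84 to 8.67 CPM, with Sox10 at 0 counts. C6F5UE-C6F(L)V held 416, 342 and 232 CPM and pHeps 938 and 897 CPM, while NSF-CiHeps held 19.8, 99.1 and 43.0 CPM and overlapped C6FAE-C6F(L). The annotation places the exons of a read-through gene, Gm20425, over 2108 of the 3320 exon bases of Trf on the same strand, and that gene had at most 1 count in any library. The counting tool is not given, so how reads in the shared bases were assigned is unknown. The low Gm20425 count does not show that Trf lost none of them. The transferrin protein added to the hepatocyte medium is not measured by these RNA counts.

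The fetuin genes are chromosomal neighbours, Ahsg (ENSMUSG00000022868, chromosome 16, 22891277 to 22899449) and Fetub (ENSMUSG00000022871, chromosome 16, 22918334 to 22939778), both on the plus strand and 18.9 kb apart with no annotated gene between them. By the likeness measure given below, their patterns were the least alike of any 2 of the 10 genes (3.30), closely followed by Ahsg and Itih1 (3.28). Ahsg had 0 counts in MEF, 3 counts over the 3 C6FAE libraries and 15 over the 3 C6F(L) libraries. It rose to 153, 29.2, 56.6 and 54.0 CPM in C6FAE-C6F(L) and to 2010, 1659 and 2119 CPM in C6F5UE-C6F(L)V, where the libraries overlapped the pHeps values of 1596 and 1998 CPM. In NSF-CiHeps Ahsg was at 35.3, 125 and 12.7 CPM, which overlapped C6FAE-C6F(L). Fetub differed in that it was already present after either single treatment. It was at 0.532, 0.599 and 0 CPM in MEF, 3.55, 3.75 and 4.76 CPM in C6FAE, 2.54, 2.55 and 3.38 CPM in C6F(L) and 5.75, 2.05, 3.53 and 6.43 CPM in C6FAE-C6F(L), so that the C6FAE-C6F(L) range covered both single treatments. In C6F5UE-C6F(L)V it reached 151, 113 and 156 CPM, above both pHeps libraries (51.2 and 55.9 CPM), with NSF-CiHeps at 8.07, 24.0 and 4.51 CPM. Per kilobase, Ahsg was 27.9 and 31.9 times Fetub in pHeps, 11.9 to 13.2 times in C6F5UE-C6F(L)V, 7.51 to 23.8 times in C6FAE-C6F(L) and 2.53 to 4.63 times in NSF-CiHeps, while in C6FAE it was at most 0.0406 times. An antisense gene, Gm30505, covers 62 of the 2197 exon bases of Ahsg.

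The start-site regions of the 2 fetuins are shown because the genes lie side by side and had different patterns. Each runs from 250 bases before to 50 bases after the annotated start of RefSeq (GRCm38.p6), which differs from the start in the count tables' gene models, 5′ to 3′ on the strand of the gene, with letters in capitals where a motif was found. The motifs searched on both strands were GTTAAT for HNF1, CAAAGTCCA for HNF4, TTGCNNAA for C/EBP, TGTTTAC or otherwise TGTTTGC for FOXA, and TATAAA for the TATA box. No 2 matches overlapped in any window of these genes.
Ahsg, chr16:22891765-22892064: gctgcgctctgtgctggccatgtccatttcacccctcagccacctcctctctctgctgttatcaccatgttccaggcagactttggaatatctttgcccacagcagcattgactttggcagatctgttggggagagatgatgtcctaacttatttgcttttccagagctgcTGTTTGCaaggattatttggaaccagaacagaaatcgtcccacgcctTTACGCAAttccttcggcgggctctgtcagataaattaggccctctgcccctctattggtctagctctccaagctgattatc
Fetub, chr16:22918132-22918431: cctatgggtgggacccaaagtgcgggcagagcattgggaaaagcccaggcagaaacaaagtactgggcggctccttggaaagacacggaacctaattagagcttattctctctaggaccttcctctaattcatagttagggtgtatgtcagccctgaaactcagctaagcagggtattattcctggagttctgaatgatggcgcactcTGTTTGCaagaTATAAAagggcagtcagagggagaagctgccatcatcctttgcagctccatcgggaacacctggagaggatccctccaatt
TGTTTGC stood in both windows shown, first base at -79 from the start in Ahsg and at -42 in Fetub. Ahsg also held a C/EBP match at -32 and no TATAAA, and Fetub held TATAAA at -31. The other RefSeq window of Fetub (chr16:22919972-22920271, not shown) held TGTTTAC at -236, a motif in 3.65% of all windows. Of all 32817 windows in the same table, 5.06% held TGTTTGC, 10.8% TTGCNNAA and 13.6% TATAAA on either strand. RefSeq windows were found for 8 of the 10 genes (10 windows, 2 each for Fetub and Rbp4), all except Ttr and Trf.

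Ambp (ENSMUSG00000028356, chromosome 4, 63143275 to 63154799, minus strand) was the gene furthest below its hepatocyte level in C6F5UE-C6F(L)V. It was at 3068 and 3395 CPM in pHeps, and per kilobase it was the highest of the 10 genes there, with Rbp4 next. C6F5UE-C6F(L)V held 415, 422 and 434 CPM, 13.1% of the pHeps mean, and NSF-CiHeps 64.1, 207 and 12.04 CPM. C6FAE-C6F(L) held 34.5, 3.42, 12.7 and 17.9 CPM and overlapped NSF-CiHeps. MEF had 5 to 9 counts per library, and C6FAE and C6F(L) had 3 and 4 counts in all.

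Itih1 to Itih4 did not keep 1 common order between the groups. Itih2 (ENSMUSG00000037254, chromosome 2, 10094593 to 10131396, minus strand) had the highest level per kilobase of the 10 genes in MEF, and its CPM there was 11.6, 15.2 and 11.5 CPM. It was at 0.565, 0.833 and 0.418 CPM in C6FAE, 0.780, 1.13 and 2.83 CPM in C6F(L) and 11.3, 1.85, 3.62 and 18.7 CPM in C6FAE-C6F(L), where replicate 4 was highest and the group overlapped both MEF and C6F(L). The C6FAE-C6F(L) libraries other than replicate 4 lay below every MEF library. C6F5UE-C6F(L)V held 136, 114 and 140 CPM and NSF-CiHeps 62.2, 141 and 45.4 CPM, which overlapped, and pHeps 834 and 904 CPM. Macrophage markers were lower in the single treatments too. They summed to 8.56 to 11.1 CPM in C6FAE and 8.31 to 11.3 CPM in C6F(L), against at least 1316 CPM in MEF. In C6FAE-C6F(L), where Itih2 overlapped MEF, they summed to 9.47 to 120 CPM, with no counts of Adgre1, C1qa, C1qb or Fcrls. Replicate 4, with the highest Itih2 level of that group, had the lowest macrophage sum (9.47 CPM). The part of these markers in the Itih2 differences was not tested.

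Itih3 (ENSMUSG00000006522, chromosome 14, 30908572 to 30923760, minus strand) had its highest level outside the hepatocytes. C6F5UE-C6F(L)V held 545, 432 and 431 CPM against 56.1 and 59.1 CPM in pHeps, so that its mean was 815% of the pHeps mean. C6FAE-C6F(L) held 30.9, 4.10, 8.26 and 10.5 CPM, NSF-CiHeps 6.98, 18.8 and 2.80 CPM, and these groups overlapped. MEF, C6FAE and C6F(L) held 7, 1 and 27 counts in all. Itih4 (ENSMUSG00000021922, chromosome 14, 30886476 to 30902353, plus strand) was at 423 and 446 CPM in pHeps, 201, 165 and 149 CPM in C6F5UE-C6F(L)V and 11.1, 47.4 and 4.43 CPM in NSF-CiHeps. In C6FAE-C6F(L) it was at 105, 39.0, 47.4 and 10.7 CPM, lowest in replicate 4, in which Itih2 was highest. Itih1 (ENSMUSG00000006529, chromosome 14, 30929180 to 30943289, minus strand) was the lowest of the 10 per kilobase in both groups that held it in every library, at 24.6 and 29.8 CPM in pHeps and 9.19, 13.2 and 8.55 CPM in C6F5UE-C6F(L)V. It had 0 counts in all 9 libraries of MEF, C6FAE and C6F(L), 2 counts in C6FAE-C6F(L) replicate 1 and 8 counts in NSF-CiHeps replicate 2, and 0 in the others of those groups.

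Itih4, Itih3 and Itih1 lie together on chromosome 14, with 6.22 kb between Itih4 and Itih3 and 5.42 kb between Itih3 and Itih1. The start-site windows of Itih3 and Itih2 are shown because these heavy chains lay on opposite sides of the hepatocyte level in C6F5UE-C6F(L)V, and that of Ambp because its product joins them. They are RefSeq windows of GRCm38.p6 on the minus strand, written 5′ to 3′, with the motifs named above in capitals.
Itih3, chr14:30923538-30923837: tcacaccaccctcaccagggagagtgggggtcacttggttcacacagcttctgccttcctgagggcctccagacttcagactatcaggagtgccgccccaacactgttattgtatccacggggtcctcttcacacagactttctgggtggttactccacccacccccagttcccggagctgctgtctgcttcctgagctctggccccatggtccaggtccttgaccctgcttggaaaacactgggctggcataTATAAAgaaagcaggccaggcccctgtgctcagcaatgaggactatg
Itih2, chr2:10130634-10130933: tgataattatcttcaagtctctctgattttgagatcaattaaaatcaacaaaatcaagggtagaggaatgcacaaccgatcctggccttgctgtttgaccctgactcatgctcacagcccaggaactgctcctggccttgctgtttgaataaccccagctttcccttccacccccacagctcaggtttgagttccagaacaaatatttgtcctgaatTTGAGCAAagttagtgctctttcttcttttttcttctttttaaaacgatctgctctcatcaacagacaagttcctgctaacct
Ambp, chr4:63154123-63154422: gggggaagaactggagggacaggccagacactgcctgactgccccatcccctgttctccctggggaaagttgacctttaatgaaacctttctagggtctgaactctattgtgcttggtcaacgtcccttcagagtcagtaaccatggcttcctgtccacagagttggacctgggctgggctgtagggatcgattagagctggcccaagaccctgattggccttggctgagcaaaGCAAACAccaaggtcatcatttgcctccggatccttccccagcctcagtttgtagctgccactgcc
The window of Itih3 held TATAAA beginning at position 4 after the start and none of the other motifs searched. Itih2 held a C/EBP match at -33 and Ambp the FOXA letters TGTTTGC, on the other strand, at -16. None of the 10 windows held CAAAGTCCA, which stood in 0.475% of all windows.

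The make-up of the Itih1 to Itih4 transcripts was then computed per kilobase of gene model in each library. Itih2 made up 64.7% and 65.1% of the summed Itih1 to Itih4 level in pHeps and Itih3 3.97% and 3.88%. In C6F5UE-C6F(L)V Itih2 made up 16.5% to 20.7% and Itih3 58.2% to 60.4%, with no overlap with pHeps for either. NSF-CiHeps, which had the same cocktails, had Itih2 at 70.1% to 87.4% and Itih3 at 4.90% to 8.48%. In C6FAE-C6F(L) Itih4 led in replicates 1 to 3, at 70.3% to 86.3%, and made up 25.4% in replicate 4, where Itih2 made up 49.3%. Itih1 was 1.92% and 2.16% in pHeps and 1.12% to 1.99% in C6F5UE-C6F(L)V, which overlapped. MEF libraries held 94.8% to 100% Itih2, over 139 to 177 counts each.

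**Figure D2:**
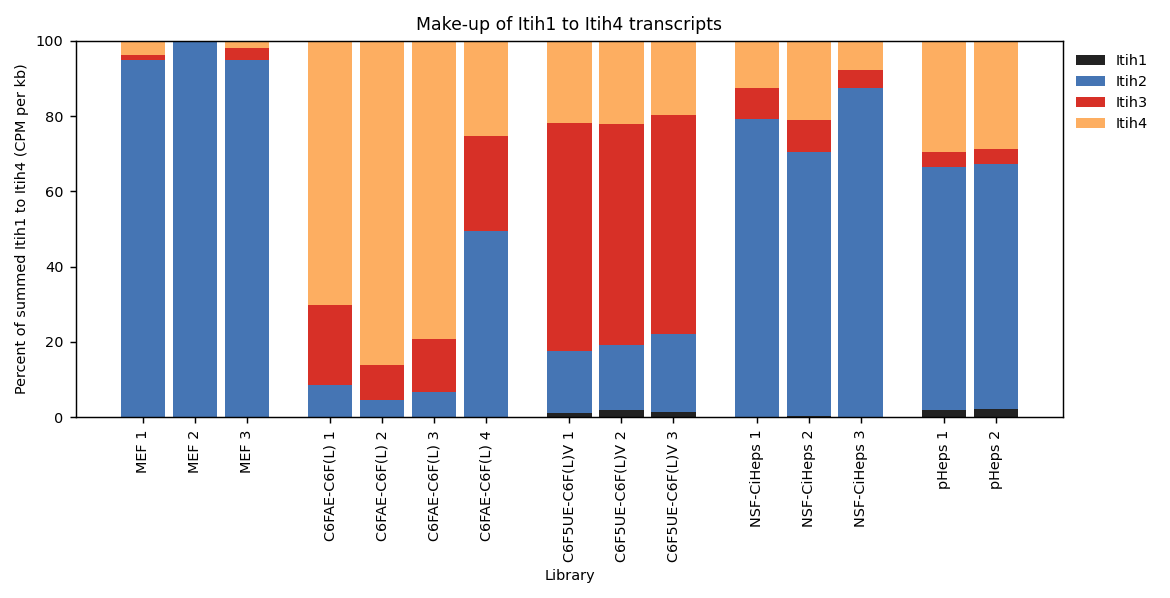
Share of Itih1, Itih2, Itih3 and Itih4 in their summed level (CPM per kb, percent) in each library of the hepatocytes, their 3 induced counterparts and MEF. C6FAE and C6F(L) are left out because they held 12 to 61 counts of the 4 genes per library. Itih3 makes up 58.2% to 60.4% in C6F5UE-C6F(L)V and 3.88% to 3.97% in pHeps.

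The level of the light chain precursor gene was then set against that of the heavy chains that bikunin is linked to. Per kilobase, Ambp was 7.94 and 8.09 times the summed Itih1 to Itih3 level in pHeps. The ratio was 1.52 to 1.91 in C6F5UE-C6F(L)V, 1.44 to 2.68 in C6FAE-C6F(L) and 0.590 to 3.06 in NSF-CiHeps, lowest in replicate 3, so that no induced library reached the pHeps ratio. In MEF it was 0.0665 to 0.159. With Itih4 in the sum the ratio was 5.60 and 5.75 in pHeps, 1.19 to 1.51 in C6F5UE-C6F(L)V and 0.545 to 2.42 in NSF-CiHeps. In C6FAE-C6F(L), where Itih4 led in replicates 1 to 3, it was then 0.198 to 1.11, on the other side of equality in those 3 libraries. The choice between these sums was made after seeing the data.

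**Figure D3:**
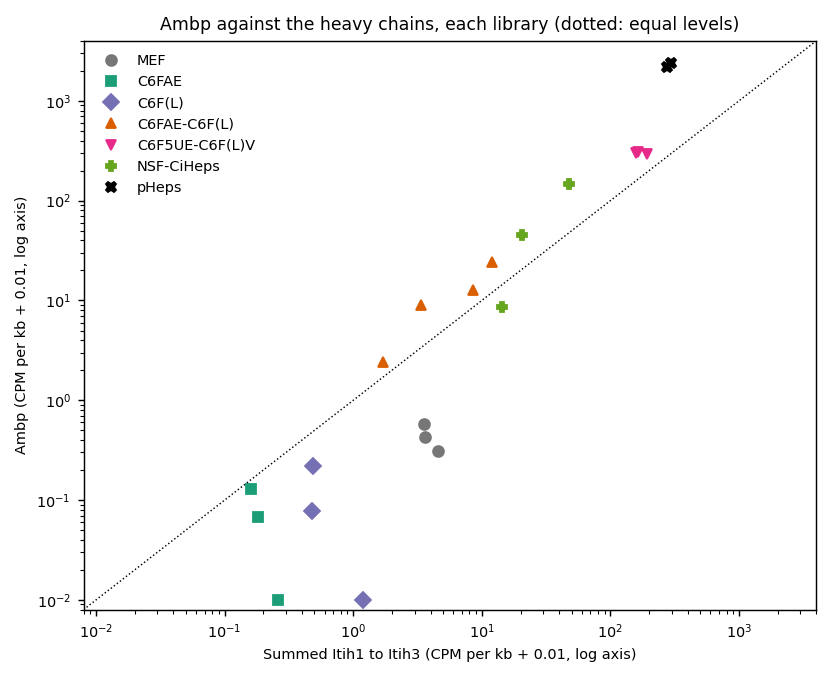
Ambp against the summed Itih1 to Itih3 level in each of the 21 libraries (CPM per kb + 0.01, log axes), with a dotted line of equal levels. The pHeps libraries lie 7.94 and 8.09 times above equality, those of C6F5UE-C6F(L)V 1.52 to 1.91 times.

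The comparison of C6FAE alone with MEF shows the 10 genes after the first step. Rbp4 and Fetub rose and Trf and Itih2 fell. Throughout, a gene was called when edgeR's quasi-likelihood test gave a Benjamini-Hochberg adjusted p under 0.05 and a log2 fold change of at least 1 in size. Rbp4 rose by 2.72 on the log2 scale (SE 0.45, adjusted p = 3.0e-04) and Fetub by 3.39 (SE 0.65, adjusted p = 8.6e-04). Trf fell by 2.63 (SE 0.79, adjusted p = 0.014) and Itih2 fell by 4.37 (SE 0.82, adjusted p = 7.8e-04). Of 9 members tested (all but Itih1), 2 were higher and 2 lower, against 15.6% and 14.7% of all 16535 genes tested, and the median log2 fold change was 1.13 for the 9 and 0.02 for all genes. Ttr was at least 10.3-fold higher, taking a floor of 3 counts over the MEF group, but was not called (adjusted p = 0.19). The bound was 6.79-fold to 6.98-fold without 1 MEF library, when the floor stands over the other 2, and Ahsg was at or under the floor in both groups. Trf was not called without C6FAE replicate 2 (-2.35, adjusted p = 0.052), and Fetub was at 2.81 without MEF replicate 3, which had no count of it.

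C6F(L) given to MEF directly shows the hepatocyte medium course without the first step. Ttr, Rbp4 and Fetub rose and Itih2 fell. Of 9 members tested, 3 were higher and 1 lower, against 10.6% and 12.4% of genes. Ttr was at least 142-fold higher (adjusted p = 0.010), which rested on replicate 1, and without it the bound was 14.9-fold (adjusted p = 0.022). Without a MEF library it was 93.6-fold to 96.3-fold. Fetub rose by 2.88 (SE 0.66, adjusted p = 0.0040) and Itih2 fell by 3.00 (SE 0.74, adjusted p = 0.0064), or by 3.72 without C6F(L) replicate 3. Rbp4 rose by 1.25 (SE 0.45, adjusted p = 0.042), but did not pass when replicate 1 or 3 of C6F(L) or any 1 MEF library was left out (adjusted p from 0.069 to 0.14) or with scaling by library size only (0.051). Trf (-1.18), Ambp (-2.16), Itih3 (2.02) and Itih4 (2.34) did not pass (adjusted p from 0.11 to 0.19), and neither did Ahsg (at least 5.41-fold, adjusted p = 0.11), whose bound was 3.25-fold without C6F(L) replicate 2 and 3.56-fold to 3.67-fold without a MEF library.

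The sequential treatment raised most of these genes, and in these bulk libraries more cells of a type and more RNA per cell cannot be told apart. In C6FAE-C6F(L) against MEF, 8 of 9 members tested rose and none fell, against 18.2% higher and 19.3% lower over all genes. The median log2 fold change was 4.81 for the 9 and 0.04 for all genes. Ahsg was at least 883-fold higher (adjusted p = 1.1e-05) and Ttr at least 290-fold (adjusted p = 0.0027). Itih4 rose by 7.56 (SE 0.89), Itih3 by 6.002 (SE 0.90), Ambp by 4.81 (SE 0.77), Fetub by 3.54 (SE 0.63), Rbp4 by 3.52 (SE 0.44) and Trf by 3.38 (SE 0.58), with adjusted p from 1.6e-05 to 3.8e-04. Itih2 did not pass (-0.51, SE 0.60, adjusted p = 0.48). Without C6FAE-C6F(L) replicate 4 it was at -1.17 (SE 0.52, adjusted p = 0.061). Replicate 1 was the highest library for 8 of the 10 genes and replicate 2 alone the lowest for 8. Without replicate 1 the log2 fold changes were 6.92 for Itih4, 5.19 for Itih3, 4.22 for Ambp and 2.59 for Trf, and the bounds 556-fold for Ahsg and 220-fold for Ttr. Without MEF replicate 3 Fetub was at 2.96. With few MEF counts left, the ratio of count shares for Itih4 went from 200 to 406 without MEF replicate 1 (95% exact interval 139 to 1972, 3 counts) and that for Itih3 from 69.6 to 161 without MEF replicate 3 (44.3 to 1329, 2 counts). The number higher was 8 without any 1 of the 7 libraries, replicate 4 included. Without MEF replicate 1, 2 or 3, the bounds were 582-fold to 599-fold for Ahsg and 191-fold to 197-fold for Ttr, since the floor then stands over 2 libraries.

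Against each single treatment 7 of 9 members were higher and none lower. Over all genes, 16.1% were higher and 17.6% lower against C6FAE, and 15.5% and 16.5% against C6F(L). Against C6FAE, Trf rose by 6.01 (SE 0.73), Itih4 by 6.42 (SE 0.80), Ttr by 4.84 (SE 1.37) and Itih2 by 3.86 (SE 0.80), with adjusted p from 2.3e-05 to 0.012. Against the few C6FAE counts, the ratio was 858 for Ahsg (95% exact interval 293 to 4160, 3 counts), 202 for Ambp (68.8 to 980, 3 counts) and 473 for Itih3 (84.6 to 18728, 1 count), with adjusted p of 1.4e-05, 4.1e-05 and 5.2e-05. The intervals cover counting error only. Rbp4 (0.80, SE 0.37, adjusted p = 0.087) and Fetub (0.15, SE 0.48, adjusted p = 0.81) did not pass. Rbp4 passed without C6FAE-C6F(L) replicate 2 (1.00, adjusted p = 0.023). Without C6FAE-C6F(L) replicate 1, Trf was at 5.23, Itih4 at 5.79, and the ratios were 540 (Ahsg), 133 (Ambp) and 267 (Itih3). Without replicate 4 Itih2 was at 3.20, and without C6FAE replicate 1 or 3 the ratio was 1695 (304 to 66960) for Ahsg and 408 (73.0 to 16140) for Ambp, while Itih3 was then at least 106-fold higher over 0 counts. Without C6FAE replicate 1 or 2 Itih3 was at 312 or 316, and without replicate 2 or 3 Ambp was at 135 and Ahsg at 578, respectively.

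Against C6F(L), the largest rises were those of Ahsg at 7.25 (SE 0.78), Ambp at 6.97 (SE 0.95, over 4 counts in C6F(L)) and Itih4 at 5.22 (SE 0.73), followed by Trf at 4.56 (SE 0.65), Itih3 at 3.98 (SE 0.76), Itih2 at 2.48 (SE 0.71) and Rbp4 at 2.27 (SE 0.41), with adjusted p from 3.0e-05 to 0.010. Fetub (0.66, adjusted p = 0.28) did not pass. Ttr did not pass either (0.91, SE 1.04, adjusted p = 0.48), but without C6F(L) replicate 1 it was at 4.17 (SE 0.86, adjusted p = 0.0036). Without C6FAE-C6F(L) replicate 1 the values were 6.60 for Ahsg, 6.38 for Ambp, 4.59 for Itih4, 3.77 for Trf and 3.17 for Itih3, and without replicate 4 Itih2 was at 1.82. Leaving out C6F(L) libraries moved Ambp to 6.38 (replicate 3), Ahsg to 7.94 (replicate 2) and Itih2 to 3.18 (replicate 3). The ratio of count shares for Ambp went from 144 to 392 without C6F(L) replicate 1 (70.1 to 15488, 1 count).

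Whether C6F(L) acted differently after C6FAE than on MEF was tested as an interaction over the same 13 libraries. Collection days are not in the labels, so time in culture cannot be told apart from the treatments here. The log2 fold change that C6F(L) brought was more positive after C6FAE for Trf, Ambp, Itih2 and Itih3 and less positive for Fetub. On MEF it was negative for Itih2, which was called lower, and for Trf (-1.18) and Ambp (-2.16), which did not pass. After C6FAE it was positive for Trf (6.01), Ambp (7.52) and Itih2 (3.86). Itih2 had fallen in C6FAE, and in C6FAE-C6F(L) it was not called different from MEF (-0.51). That value was -1.17 (adjusted p = 0.061) without C6FAE-C6F(L) replicate 4. The differences of log2 fold changes were 9.68 for Ambp (SE 1.57, adjusted p = 3.1e-04), 7.20 for Trf (SE 1.00, adjusted p = 1.0e-04), 6.85 for Itih2 (SE 1.09, adjusted p = 2.6e-04), 6.43 for Itih3 (SE 1.97, adjusted p = 0.017) and -2.73 for Fetub (SE 0.81, adjusted p = 0.015). The estimates for Ambp and Itih3 rest on few counts, 3 and 1 in C6FAE. Thus 4 of 9 members were higher and 1 lower, against 16.2% and 16.8% of all genes. Rbp4 (-0.45) and Itih4 (4.09) did not pass (adjusted p = 0.56 and 0.066), and Ttr and Ahsg, whose estimates rest on 0 counts in MEF, did not pass either (adjusted p = 0.33 and 0.96). The call of Itih3 was lost without MEF replicate 3 (5.33, adjusted p = 0.15), and it was at 8.22 without C6FAE replicate 3 and 5.62 without C6FAE-C6F(L) replicate 1. It was also lost in the fit of all libraries (adjusted p = 0.086). Itih4 passed without MEF replicate 2 (4.66, adjusted p = 0.043) or without C6FAE-C6F(L) replicate 1 (3.46, adjusted p = 0.043) or 4 (4.43, adjusted p = 0.013). Ambp ran from 9.09 (without C6F(L) replicate 3 or C6FAE-C6F(L) replicate 1) over 10.53 (without C6FAE replicate 3) to 10.92 (without C6F(L) replicate 1), Trf was at 6.41 without C6FAE-C6F(L) replicate 1, and Itih2 at 7.55 without C6F(L) replicate 3 and 6.19 without C6FAE-C6F(L) replicate 4. Keratinocyte markers rose in the same C6FAE-C6F(L) libraries, from at most 25.0 CPM in C6FAE to at least 8355 CPM, and their part in these values was not tested.

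C6F5UE-C6F(L)V cells were set against pHeps, which were counted in the same table, to see how near they came to hepatocytes. Itih3 and Fetub were higher than in hepatocytes, 6 genes were lower, and Ttr and Ahsg did not pass. Itih3 was higher by 3.02 (SE 0.13, adjusted p = 8.9e-10) and Fetub by 1.38 (SE 0.14, adjusted p = 2.8e-06). Ambp fell short by the most, at -2.94 (SE 0.09, adjusted p = 5.1e-11), followed by Itih2 at -2.75 (SE 0.11), Trf at -1.48 (SE 0.17), Itih1 at -1.40 (SE 0.22), Itih4 at -1.35 (SE 0.12) and Rbp4 at -1.32 (SE 0.10), with adjusted p from 4.0e-10 to 1.5e-04. Ttr was at 0.25 (SE 0.12, adjusted p = 0.090) and Ahsg at 0.10 (SE 0.12, adjusted p = 0.51). Of the 10 genes 2 were higher and 6 lower, against 18.4% and 14.7% of 15531 genes, and the median was -1.34 for the 10 and 0.01 for all genes. These counts were the same without any 1 of the 5 libraries, and leaving out 1 of the pHeps leaves a single library that is assumed to vary like the C6F5UE-C6F(L)V libraries. In a fit over all 21 libraries Itih1 and Itih4 kept their values (-1.40 and -1.34) but did not pass (adjusted p = 0.12 for each). Stomach and intestine markers were at 257 to 273 CPM against 2.14 to 2.64 CPM in pHeps, where Cdx1, Cdx2 and Gkn1 had 0 counts, and 4 of 4 tested were higher. Macrophage markers were at 18.1 to 22.2 CPM against 484 to 607 CPM, with 5 of 5 tested lower, and adipocyte markers were higher as given above, with 1 of 2 tested called. Their part in these values was not tested.

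**Figure D4:**
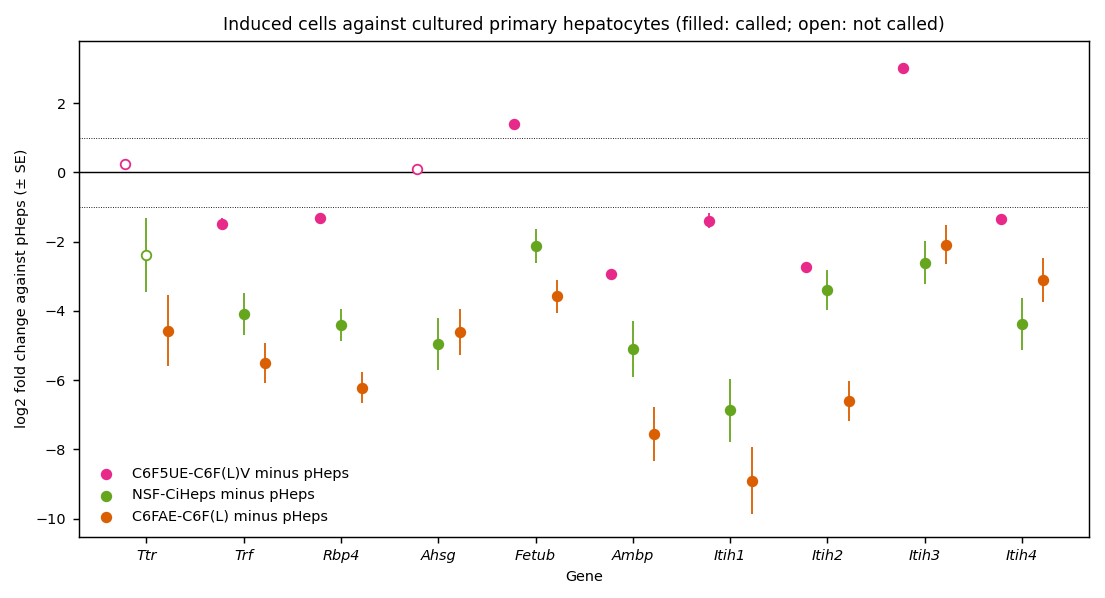
Log2 fold change against pHeps with its SE for each gene in C6F5UE-C6F(L)V, NSF-CiHeps and C6FAE-C6F(L), with filled points for called genes, open points for genes not called and dotted lines at 1 and -1. Itih3 (3.02) and Fetub (1.38) in C6F5UE-C6F(L)V are the only called points above 0.

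Against MEF, all 10 genes were higher in C6F5UE-C6F(L)V, against 25.7% of 18605 genes higher and 26.4% lower. C6F5UE-C6F(L)V and pHeps were counted in 1 table, and NSF-CiHeps in another, apart from the rest. In this comparison, and in the others that set either table against the remaining libraries or each other, table and group cannot be told apart. Ahsg was at least 24497-fold higher, Ttr at least 8676-fold and Itih1 at least 131-fold, and among the genes with counts in MEF the log2 fold change ran from 3.35 (Itih2, SE 0.57) to 11.11 (Itih3, SE 0.95), with adjusted p from 5.8e-10 to 4.3e-05 over the 10. Without a MEF library the bounds were at least 16146-fold, 5718-fold and 86.5-fold, and Itih3 was at 10.53 without MEF replicate 2. Without MEF replicate 3 the ratio of count shares for Itih3 went from 2578 to 5947 (1646 to 49108, 2 counts). All 10 were also higher than in C6FAE-C6F(L), against 19.7% of genes higher and 22.8% lower, with log2 fold changes from 1.77 (Itih4, SE 0.59, adjusted p = 0.014) to 5.12 (Itih3, SE 0.56, adjusted p = 3.9e-07) and, for Itih1 over 2 counts, a ratio of 241 (66.1 to 1996, adjusted p = 2.2e-05). Without C6FAE-C6F(L) replicate 1, Itih4 was at 2.39, Itih3 at 5.92 and Itih1 at least 121-fold higher.

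The same cocktails on skin fibroblasts gave lower levels of 9 of the 10 genes. In NSF-CiHeps against C6F5UE-C6F(L)V none was higher and 9 were lower, against 12.3% and 16.2% of all genes. Itih3 was at -5.64 (SE 0.65, adjusted p = 1.8e-06), Itih1 at -5.48 (SE 0.87, adjusted p = 2.5e-04) and Ahsg at -5.07 (SE 0.74, adjusted p = 3.5e-05). With the DESeq2 test Itih1 did not pass (adjusted p = 0.10) and 8 genes were lower. The log2 fold change was -3.53 for Fetub (SE 0.48), -3.10 for Rbp4 (SE 0.43), -3.04 for Itih4 (SE 0.68), -2.65 for Ttr (SE 1.01), -2.61 for Trf (SE 0.54) and -2.17 for Ambp (SE 0.69), with adjusted p from 1.1e-05 to 0.040. Itih2 did not pass (-0.65, SE 0.51, adjusted p = 0.31). NSF-CiHeps replicate 2 was the highest library for all 10 genes and replicate 3 alone the lowest for 7. Hepatocyte markers were at 339 CPM in replicate 2, 307 CPM in replicate 1 and 251 CPM in replicate 3, and their part in this order was not tested. Without replicate 2 the values were -6.59 for Itih3, -6.34 for Ahsg, -4.48 for Fetub, -4.47 for Itih4, -3.73 for Rbp4, -3.66 for Ttr, -3.48 for Ambp and -3.40 for Trf. The 8 counts of Itih1 all lay in replicate 2, without which it was at least 88.1-fold lower, and without replicate 1 or 3 it was at -4.85 or -4.86. The call of Ttr was lost without C6F5UE-C6F(L)V replicate 1, 2 or 3 or NSF-CiHeps replicate 1 or 3 (adjusted p from 0.059 to 0.10), and that of Ambp without NSF-CiHeps replicate 1 (-1.92, adjusted p = 0.059). The number lower was 7 to 9 when 1 library was left out. Stomach and intestine markers (5 genes) summed to 664 to 1237 CPM in NSF-CiHeps against 257 to 273 CPM in C6F5UE-C6F(L)V, and their part in the result was not tested.

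Compared with pHeps, 9 of the 10 genes were lower in NSF-CiHeps and none higher, against 18.1% lower and 17.4% higher over all genes. The log2 fold change was -5.10 for Ambp (SE 0.81), -4.97 for Ahsg (SE 0.76), -4.42 for Rbp4 (SE 0.47), -4.38 for Itih4 (SE 0.75), -4.09 for Trf (SE 0.60), -3.39 for Itih2 (SE 0.58), -2.61 for Itih3 (SE 0.62) and -2.14 for Fetub (SE 0.49), with adjusted p from 4.9e-07 to 0.0017. Itih1 was at -6.88 (SE 0.91, adjusted p = 5.0e-05), but did not pass with the DESeq2 test (adjusted p = 0.059), which called 8 genes lower. Ttr did not pass (-2.40, SE 1.07, adjusted p = 0.070) but did without NSF-CiHeps replicate 2 (-3.40, adjusted p = 0.031). Without that library the other values were -6.41 for Ambp, -6.23 for Ahsg, -5.05 for Rbp4, -5.81 for Itih4, -4.87 for Trf, -4.02 for Itih2, -3.56 for Itih3 and -3.09 for Fetub, and Itih1, at 0 counts, was at least 212-fold lower. Without replicate 1 or 3 Itih1 was at -6.26.

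All 10 genes were lower in C6FAE-C6F(L) than in pHeps, against 20.8% of genes lower and 26.1% higher. The differences ran from -2.10 (Itih3, SE 0.56, adjusted p = 0.0033) and -3.11 (Itih4, SE 0.64, adjusted p = 4.0e-04) to -7.56 (Ambp, SE 0.79, adjusted p = 2.2e-07), and Itih1, with 2 counts, had a ratio of count shares of 0.00173 (95% exact interval 2.1e-04 to 0.00626, adjusted p = 5.6e-06). Without C6FAE-C6F(L) replicate 1, Itih3 was at -2.91, Itih4 at -3.73 and Ambp at -8.14, and Itih1 was at least 290-fold lower. The median of all genes in this comparison was 0.16. The reference pair, pHeps against MEF, had all 10 genes higher, against 24.4% of genes higher and 27.2% lower, with Itih2 lowest at 6.09 (SE 0.65, adjusted p = 2.2e-07) and Ahsg at least 20901-fold, Ttr at least 6593-fold and Itih1 at least 316-fold higher. Without a MEF library those bounds were at least 13775-fold, 4346-fold and 208-fold.

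Likeness of pattern was measured as the root mean square difference of centred mean log2 CPM over the 7 groups, among 12920 genes with at least 10 CPM in a group. Ahsg was most like the fibrinogen chain genes Fgb (0.59) and Fgg (0.77) and then the vitamin D carrier Gc (0.83). Itih4 (0.57), Itih3 (0.83) and Ttr (1.10) had the urea cycle gene Cps1 among their 3 nearest genes, first for Itih4 and Ttr and second for Itih3 after Cyp2d9 (0.69). Trf was nearest to the peroxisomal oxidase gene Acox2 (0.72), Rbp4 to Acmsd (0.73), Fetub to Glt1d1 (0.72), Ambp to the bile transporter gene Abcc2 (1.00), Itih1 to the apolipoprotein gene Apoc4 (0.32) and Itih2 to the glucuronosyltransferase gene Ugt2b36 (1.18). Itih1 had 0 counts in MEF, C6FAE and C6F(L), 2 in C6FAE-C6F(L) and 8 in NSF-CiHeps. Its values in those groups lay at or near the floor, which limits what its small distance shows. Among the 10 genes the nearest pair was Trf and Ambp (1.16) and the farthest Ahsg and Fetub (3.30), closely followed by Ahsg and Itih1 (3.28).

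Genes that act with these proteins were taken as lists. Of 12 tested genes that handle retinol, iron or thyroid hormone, 3 were higher and 7 lower in C6FAE than in MEF, against 15.6% and 14.7% of all genes. Among those higher were Stra6, the cell-surface receptor for Rbp4, which went from 1.15, 0 and 0.168 CPM to 549, 537 and 575 CPM (10.29, SE 1.07, adjusted p = 8.8e-06), and the retinol-esterifying enzyme gene Lrat, which had 1 count in MEF. The ferritin chain genes Fth1 (-1.16) and Ftl1 (-1.02) were among those lower. In C6F5UE-C6F(L)V against pHeps 2 of 13 were higher, among them Stra6, which had 37 counts against 0, and 8 were lower, among them the iron hormone gene Hamp at -6.56 (SE 0.16, adjusted p = 7.6e-12), whose libraries held 79.0, 70.4 and 52.2 CPM against 6724 and 5886 CPM. Over all genes 18.4% were higher and 14.7% lower in that comparison. Of 9 genes listed as partners of hyaluronan or the inter-alpha inhibitors, 7 were lower in C6FAE-C6F(L) than in MEF, against 19.3% of all genes. The hyaluronan synthase gene Has3 alone was higher (5.43, SE 0.58), against 18.2% of all genes. The matrix proteoglycan gene Vcan was at -3.42 (SE 0.48), the pentraxin gene Ptx3 at -3.75 (SE 0.20) and the heavy chain relative Itih5 at -2.28 (SE 0.35), and the hyaluronan receptor gene Cd44 did not reach the fold threshold (0.82). Fibroblast markers fell in the same libraries, from at least 26103 CPM to at most 2269 CPM, and their part in this was not tested.

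Other plasma carrier genes were counted beside the 10. Of 8 tested, all 8 were higher in C6FAE-C6F(L) than in MEF, against 18.2% of all genes, with a median log2 fold change of 6.30. In C6F5UE-C6F(L)V against pHeps 5 of 9 were lower and 1 higher, against 14.7% and 18.4% of all genes. The higher gene was Apoh, which binds phospholipids, at 166, 110 and 123 CPM against 55.4 and 63.5 CPM (1.15, SE 0.15, adjusted p = 3.4e-05). The heme carrier gene Hpx (-5.15, SE 0.12), the haemoglobin carrier gene Hp (-2.88, SE 0.10) and the copper carrier gene Cp (-2.45, SE 0.10) were among the 5 lower, and albumin (Alb) did not reach the fold threshold (-0.86, SE 0.13). Of 3 cystatin-fold genes beside the fetuins, the histidine-rich glycoprotein gene Hrg was higher in C6F5UE-C6F(L)V than in pHeps (2.05, SE 0.25, adjusted p = 1.5e-05), and the kininogen genes Kng1 (-1.29, SE 0.10) and Kng2 (-1.45, SE 0.12) were lower, against the same shares of all genes.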

How the data were processed

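Poly-A RNA libraries were counted per gene in 3 deposited tables of raw counts; per the submitters' processing notes HISAT2 and GRCm38/mm10 were used, and the counting tool is not given in the sources used here. Per the labels the library kit was NEBNext Ultra RNA, which does not mark strand, so sense and antisense reads cannot be told apart. Deposited FPKM tables were not used. From the counts, edgeR 4.0.16 in R 4.3.3 (TMM scaling, filterByExpr with minimum counts of 10 and 15 in all, quasi-likelihood F test, Benjamini-Hochberg adjustment over all genes) was fitted to 13 libraries (MEF, C6FAE, C6F(L), C6FAE-C6F(L)), to 5 (C6F5UE-C6F(L)V, pHeps) and, for comparisons across tables, to all 21. SE is the log2 fold change divided by the root of F. CPM were scaled over all 21 libraries, and levels per kilobase used the tables' gene lengths. Alternatives were library size scaling, DESeq2 1.42.0 size factors and test, no filter, a replicate block, all libraries together and leaving out each library. The scripts were tested on simulated data. The 10 genes and all lists were chosen with earlier results of these data known. Named genes are the 10, their 3 nearest patterns each, and per list the 4 with the highest group mean and any called against the list's majority; 1 gene that the rule names is not reported here. Intervals and floors of 3 counts over a group cover counting error only.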

Additional observations from a re-analysis of the deposited data

Results flagged for a closer look

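The effect of C6F(L) after C6FAE differed from its effect on MEF in the interaction test (edgeR's quasi-likelihood test) for 5 of the 10 genes. The difference of log2 fold changes was 7.20 for Trf (SE 1.00, adjusted p = 1.0e-04), 9.68 for Ambp (SE 1.57, adjusted p = 3.1e-04), 6.85 for Itih2 (SE 1.09, adjusted p = 2.6e-04), 6.43 for Itih3 (SE 1.97, adjusted p = 0.017) and -2.73 for Fetub (SE 0.81, adjusted p = 0.015). Without MEF replicate 3 Itih3 did not pass (5.33, adjusted p = 0.15). Time in culture cannot be told apart from the treatments in this test.

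Itih1 in C6FAE-C6F(L) had 1 library apart from the others: replicate 1 held 2 counts and the other 3 held 0. Its gap was then the whole range of the group (a gap of 1 when divided by the range), which follows whenever a single library of 4 holds any count, so the usual chance rate of Dixon's critical value does not apply.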

How the results depend on the processing

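Of the results for single genes, 3 reversed, none of them called: Fetub in C6FAE-C6F(L) against C6FAE went from 0.15 to -0.13 with a replicate block and ranged from -0.077 (without C6FAE-C6F(L) replicate 4) to 0.37 (without replicate 2) over the libraries left out, and Ahsg in C6F5UE-C6F(L)V against pHeps ranged from -0.054 (without pHeps replicate 1) to 0.26 (without replicate 2) around 0.10. For C6F(L) against MEF the number of the 10 genes higher went from 3 to 5 with the DESeq2 test and with a replicate block, and the number lower from 1 to 2 with the block. The number lower in the interaction went from 1 to 2 with DESeq2, and that in C6FAE against MEF ranged from 1 to 2 over the libraries left out. Replicate numbers did not pair the libraries: of 57 same-numbered pairs none correlated above 0.1 (-0.079 to 0.028). The cause of these changes was not tested. DESeq2 size factors and no filter changed no call. Scaling by library size only moved the median of all genes by over 0.1 in C6F5UE-C6F(L)V against pHeps (from 0.01 to 0.15) and MEF (0 to 0.12) and in NSF-CiHeps against pHeps (0 to 0.11), and ended 1 call, Rbp4 in C6F(L). Few counts limit Itih1, Ahsg, Ambp and Itih3 in MEF and the single treatments.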
